A study of Mus musculus with 6 samples.

Results

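Translation initiation factors are the proteins that bring the ribosome to the start codon of an mRNA. In mouse they are encoded by the Eif1 to Eif6 genes. The genes described here are all rows of the deposited gene table whose symbol begins with Eif1 to Eif6, with the eIF2 kinases left out. That gave 51 of 23281 genes. The label fits 50 of them. The remaining symbol, Eif2c5, belongs to the Argonaute naming series and is annotated as a long intergenic non-coding RNA, and it had 1 to 8 reads per library.

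The cells were female 129S x Cast hybrid mouse embryonic stem cells. In all of them, the endogenous Xist of the 129S allele was under a doxycycline-inducible promoter, and Xist ended in Bgl stem-loops, so every library, including the start of the washout, was from cells expressing Xist. Cells were kept in 1 µg/ml doxycycline for 17.5 to 20 h, labelled with 500 µM of the uridine analogue 4-thiouridine (4sU) for 4 h, and moved to 50 mM uridine with doxycycline for 0, 30, 60, 90, 120 or 150 min. Nuclear RNA of each time went into 1 stranded total RNA library. The design asks how fast labelled RNA disappears, with Xist as the study's target.

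SLAM-seq converts incorporated 4sU chemically so that it is read as C in place of T (T>C). The table gives each gene's reads, its T>C conversions and covered T positions, and an estimate of the share of its reads that came from labelled RNA, with a posterior range. A falling labelled share during the washout is the measure of turnover used here. In nuclear RNA, decay and export to the cytoplasm cannot be told apart.

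Initiation runs in steps that give the genes their groups. The initiator tRNA is carried by eIF2 with GTP, eIF2B recharges eIF2, and eIF3 is the large scaffold on the small subunit. The cap is bound by eIF4E, which joins the scaffold eIF4G and the RNA helicase eIF4A. Start codon choice is controlled by eIF1, eIF1A and eIF5, and the large subunit joins with the help of eIF5B.

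Several of these genes exist as paralogs, and the results below compare them in pairs. The sequences therefore show first how far sequenced fragments can separate them. The coding stretches are those around the longest run the coding sequences of a pair share, 5′ to 3′, from the GENCODE M21 transcripts (build GRCm38), and capitals mark every base that differs between the pair. Coding bases 1 to 120 of Eif1 and Eif1b differ at 19 positions, and bases 178 to 297 of Eif4a1 and 181 to 300 of Eif4a2 differ at 26 positions.
Eif1: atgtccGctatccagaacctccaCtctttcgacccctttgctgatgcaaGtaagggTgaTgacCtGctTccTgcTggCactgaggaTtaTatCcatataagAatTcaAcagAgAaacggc
Eif1b: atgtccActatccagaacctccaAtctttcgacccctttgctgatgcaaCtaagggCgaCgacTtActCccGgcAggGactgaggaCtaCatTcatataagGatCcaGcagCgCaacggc
Eif4a1: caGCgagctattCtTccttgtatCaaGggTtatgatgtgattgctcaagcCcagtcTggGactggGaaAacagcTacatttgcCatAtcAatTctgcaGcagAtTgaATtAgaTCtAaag
Eif4a2: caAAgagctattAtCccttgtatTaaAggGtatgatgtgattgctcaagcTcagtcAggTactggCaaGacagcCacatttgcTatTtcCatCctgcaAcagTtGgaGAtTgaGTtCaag

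The reads were 81 nt long. The longest run shared by the representative transcripts was 25 nt for Eif1 and Eif1b, 28 nt for Eif1a and Eif1ax, and 20 nt for Eif4a1 and Eif4a2. Of the 11 pairs compared, Eif3j1 and Eif3j2 were the exception, with a shared run of 1107 nt and coding sequences 99.2% identical. The single-exon Eif3j2 and the spliced Eif3j1 can therefore share reads, and both genes' values are uncertain.

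The sequences around the start codon are shown for the genes that control start codon choice and for a member that starts elsewhere than ATG. Each runs from 9 bases before the start codon to 1 base after it, with the start codon in capitals.
Eif1: tcgtatcgtATGt
Eif1b: tagtgtcgcATGt
Eif1ax: tttgcggccATGc
Eif5: taagccaaaATGt
Eif4g2: gccgccaaaGTGg

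A purine 3 bases before the start codon and a G right after it are the main features of a strong context. Neither was present in Eif1, Eif1b, Eif3b and Eif4e1b, which are 4 of 50 annotated members (8.0%), against 7.79% of 20770 protein-coding genes. Both were present in 44.0% of members and in 40.9% of all genes. Eif4g2, whose product is an eIF4G relative that does not bind eIF4E, is annotated with a GTG start.

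The libraries held 18558073 to 28535162 reads, of which 1.37% to 1.52% fell on the 51 genes. The 10 embryonic stem cell markers summed to 2910 to 3349 reads per 1000000, the 12 fibroblast feeder markers to 356 to 520, and the induced Xist RNA to 1097 to 1383. In order of washout time, conversions made up 4.05%, 2.69%, 4.11%, 2.57%, 1.55% and 1.17% of the covered T positions of all genes together. The libraries labelled 30 and 60 min thus stand out of time order, and values without them, or with the times of these libraries exchanged, are given beside results they change. No library without 4sU was analysed here.

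Of the 51 genes, 47 had a mean of at least 100 reads per library and a labelled share above 0 throughout. Those below the minimum were Eif4e1b (2 to 5 reads per library), Eif4e3 (18 to 47), Eif4ebp3 (40 to 53) and Eif2c5. Per kilobase of the deposited gene length and per 1000000 reads, a level that can be compared between genes, the helicase gene Eif4a1 was highest with a median of 710 over the libraries, ahead of Eif5a with 643 and Eif4a2 with 362. Of the 47 genes, 19 had a median above 100, and the lowest was Eif4g3 with 2.81. Labelled shares had a posterior range (5% to 95%) with a median width of 2.42 percentage points, and the widest, for Eif1b, was 9.14 percentage points.

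The labelled share fell in 10 of 47 genes (21.3%; limma slope on time, Benjamini-Hochberg adjusted p under 0.05 over all 11462 genes tested), against 52.3% of all genes tested. In the other 37 no slope passed, which does not show that they kept their label: 28 of them had a lower share at 150 min than at 0 min. The share rose in 0 of 47 at that threshold, against 1.19% of all genes, and in 0 of 47 at an unadjusted p under 0.05. The 10 genes were Eif1a, Eif4a2, Eif1b, Eif5, Eif1, Eif1ad, Eif4enif1, Eif4e2, Eif3a and Eif2b2. The median slope of the natural log of the share was -0.076 per h over the 47 genes and -0.25 per h over all genes. The count of falling genes was 4 when the 150 min library was left out, against 31.1% of all genes there, and 5 when each library was weighted by the width of its posterior range, against 25.7% of all genes. Whether the libraries differed in the number of cells of a type or in RNA per cell cannot be told apart in bulk samples, and with 1 library per time the p-values measure the scatter of 6 libraries around a line.

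**Figure D1:**
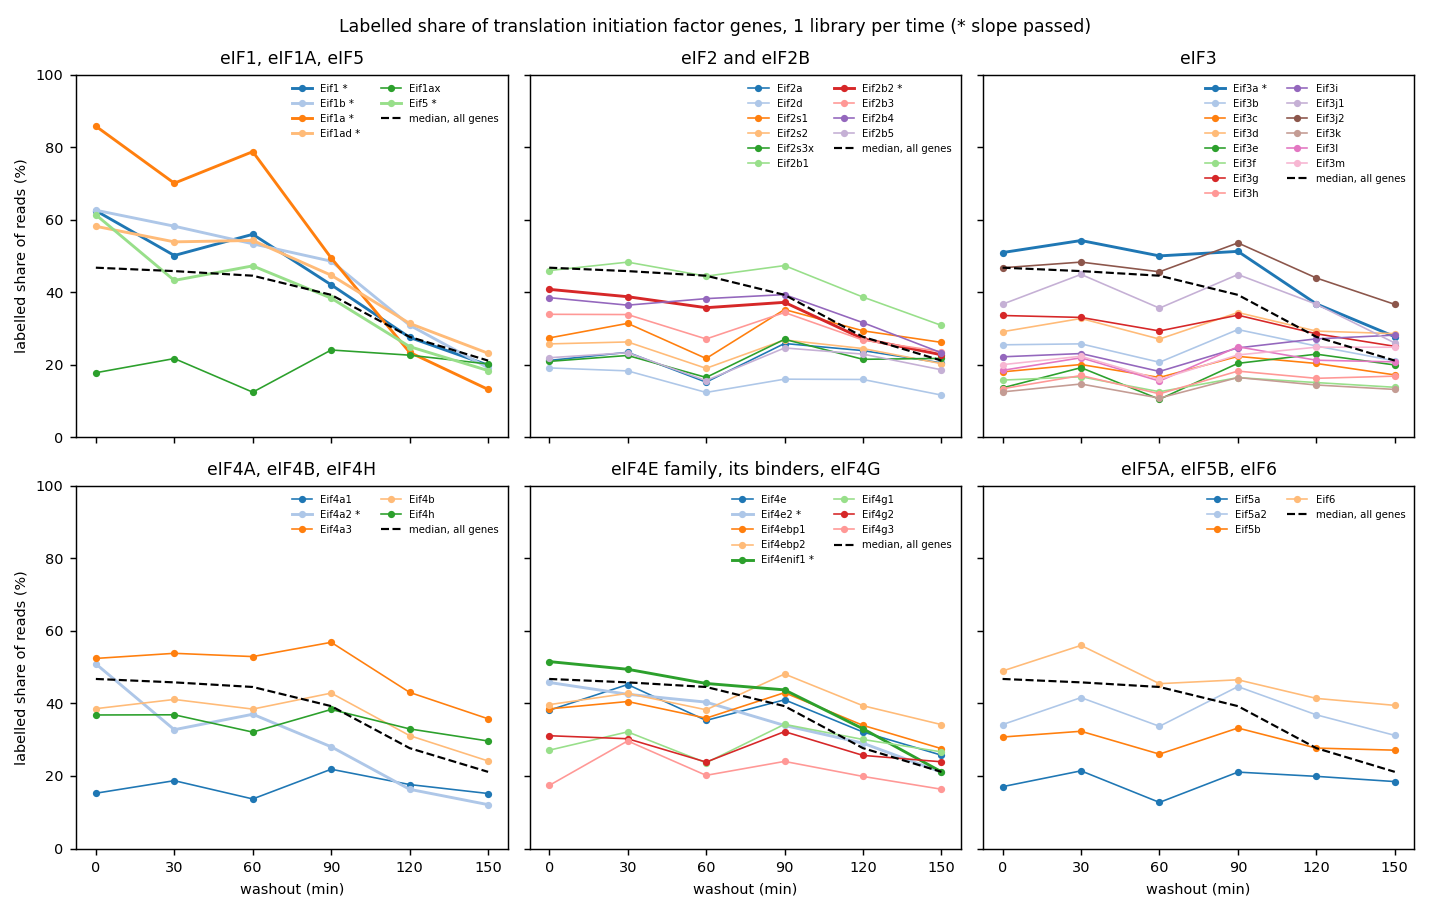
Labelled share of reads (%) against washout time (min) for the 47 genes, 1 line per gene and 1 library per point, grouped by factor, with the median of all 11462 genes dashed. Thick lines and asterisks mark the 10 genes whose slope passed. Eif1a drops from 85.8% to 13.2%, while most eIF2 and eIF3 lines start below the dashed line.

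At 0 min, 37 of the 47 shares lay below the all-gene median of 46.8%, and the median of the 47 was 33.6%. By 150 min the order was nearly even, with 21 of 47 below the all-gene median of 21.1% and a median of 22.7%. The 10 genes whose share fell started high: 8 of them were above the all-gene median at 0 min, against 2 of the other 37. Across the 47 genes the share at 0 min and the rate of loss had a Spearman's rho of 0.86, given as a description because both come from the same libraries and the 0 min share enters the slope.

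**Figure D2:**
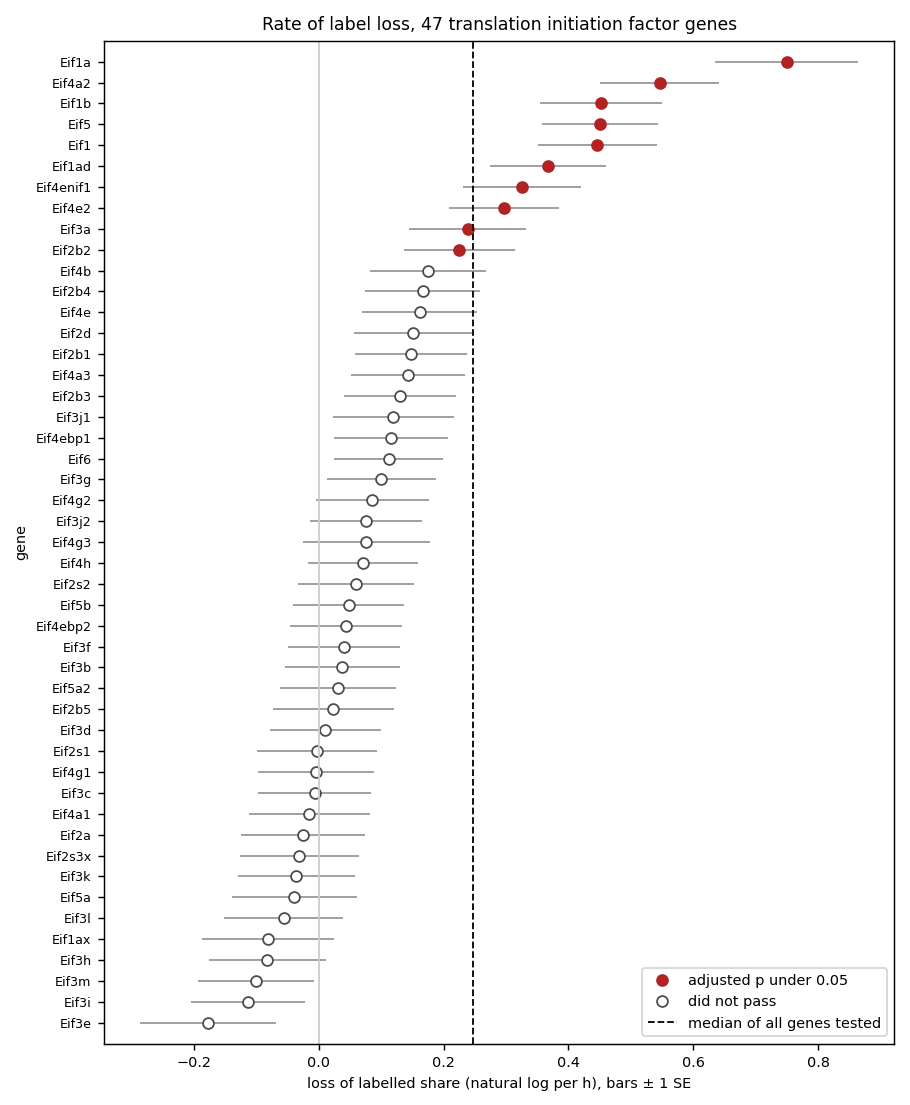
Rate of loss of the labelled share (natural log per h, horizontal axis, bars ± 1 SE) for each of the 47 genes, ordered by rate, with the median of all genes dashed. Filled points passed at an adjusted p under 0.05. Eif1a is fastest at 0.75 per h. On the rising side are the point estimates of 14 of the 47 genes, none of which passed, against 18.1% of all genes tested.

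Of the 5 genes for the start codon selection factors eIF1, eIF1A and eIF5, the share fell in Eif1, Eif1a, Eif1b and Eif5 and not in Eif1ax, against a falling share in 52.3% of all genes, and the group was not tested as such. Eif1a, one of the genes for eIF1A, which binds the ribosomal A site, had labelled shares of 85.8%, 70.0%, 78.7%, 49.4%, 23.4% and 13.2% at 0, 30, 60, 90, 120 and 150 min. The share was high in the first 3 libraries and then dropped at each time, for a loss of 0.75 ± 0.12 per h (SE, n = 6 libraries; limma adjusted p = 9.16e-05) and a half-life of 55.5 min. The range within 1 SE was 48.1 to 65.6 min.

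Its X-linked paralog Eif1ax encodes a closely related eIF1A protein. Its labelled shares were 17.8%, 21.7%, 12.4%, 24.1%, 22.6% and 20.2% in the same order. Values went up and down between libraries, and the slope did not pass (loss of -0.081 ± 0.105 per h; limma adjusted p = 0.548). Eif1a thus started at 4.82 times the share of Eif1ax and ended at 0.65 of it.

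Eif1 encodes the factor that keeps scanning ribosomes from starting at poor codons. Its labelled shares were 62.5%, 50.1%, 56.0%, 42.0%, 27.5% and 19.9%, a loss of 0.446 ± 0.095 per h (limma adjusted p = 0.000994) and a half-life of 93.3 min. The last 2 libraries were below all earlier ones. The paralog Eif1b had shares of 62.6%, 58.2%, 53.3%, 48.5%, 30.9% and 19.2%, dropping at every time, and a half-life of 92.0 min (adjusted p = 0.00112 in limma). Without the 150 min library Eif1b no longer passed (adjusted p = 0.0527). Eif1b is measured on 385 to 528 reads, and its exons overlap an opposite-strand gene, D830035M03Rik. Whether the counting used strand is not given in any source used.

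Eif5 encodes the factor that makes eIF2 hydrolyse its GTP. Its labelled shares were 61.3%, 43.2%, 47.2%, 38.4%, 25.0% and 18.4%, with a half-life of 92.4 min (loss of 0.450 ± 0.093 per h; limma adjusted p = 0.000768). As for Eif1, the last 2 libraries were the lowest. Eif1ad, named for an eIF1A-like domain, had shares of 58.2%, 53.9%, 54.3%, 44.7%, 31.4% and 23.2% and a half-life of 113 min (adjusted p = 0.00337 in limma). Its slope was lost when the last library was left out and under posterior weights, with an adjusted p of up to 0.0825. Its exons overlap those of Banf1 on the opposite strand.

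Grouped under eIF2 were the subunit genes Eif2s1, Eif2s2 and Eif2s3x, and the separate initiator tRNA factors Eif2a and Eif2d. Of these 5 genes 0 passed, against a falling share in 52.3% of all genes, and their rates ran from -0.031 to 0.151 per h. In Eif2s1, the alpha subunit that stress kinases phosphorylate, the shares were 27.4%, 31.4%, 21.7%, 35.2%, 29.4% and 26.2%. The value at 150 min was close to that at the start. For these 5 genes the shares spanned 19.1% (Eif2d) to 27.4% (Eif2s1) at 0 min and 11.6% (Eif2d) to 26.2% (Eif2s1) at 150 min.

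Among the 5 eIF2B genes, 1 passed by share, against a falling share in 52.3% of all genes. Eif2b2, the beta subunit of this exchange factor, had labelled shares of 40.8%, 38.8%, 35.7%, 37.2%, 27.1% and 22.7%, with a half-life of 184 min (adjusted p = 0.043 in limma). This call was close to the threshold and held in 6 of 14 alternatives, with adjusted p from 0.027 to 0.306. It was lost without the 0, 30, 120 or 150 min library, and without both the 30 and the 60 min library. It was also lost with a minimum of 20 reads, with posterior weights and with labelled abundance (share times scaled reads). The rates of Eif2b1, Eif2b3 and Eif2b4 were 0.148, 0.130 and 0.166 per h and did not pass. Eif2b5, the catalytic subunit and the eIF2B gene with the most reads, had shares of 21.9%, 23.3%, 15.6%, 24.6%, 22.9% and 18.6%. The 60 min library was the lowest and the 90 min library the highest.

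The 14 eIF3 genes had 1 passing, against 52.3% of all genes, and a median rate of 0.0024 per h. Eif3a, the largest scaffold subunit and the one with the most reads of the complex, had labelled shares of 50.9%, 54.2%, 50.0%, 51.2%, 36.8% and 27.7%. The first 4 libraries lay close together and the last 2 were lower. The half-life was 174 min (limma adjusted p = 0.0415), a call that held in 7 of 14 alternatives, with adjusted p from 0.0203 to 0.415. This call was lost without the 30, 120 or 150 min library and without both the 30 and the 60 min library. A minimum of 20 reads, posterior weights and labelled abundance each lost it too.

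The other subunit genes Eif3b, Eif3c, Eif3d, Eif3e, Eif3f, Eif3g, Eif3h, Eif3i, Eif3j1, Eif3j2, Eif3k, Eif3l and Eif3m did not pass. Shares of the 14 genes ran from 12.5% (Eif3k) to 50.9% (Eif3a) at 0 min and from 13.2% (Eif3k) to 36.6% (Eif3j2) at 150 min. Eif3e had the lowest rate of all 47 genes, at -0.177 ± 0.108 per h (limma adjusted p = 0.186), with shares of 13.6%, 19.2%, 10.5%, 20.4%, 22.9% and 19.9%. With the 30 and 60 min libraries exchanged, Eif3e rose (adjusted p = 0.016). The shares of the near-identical pair were 36.7%, 44.9%, 35.6%, 44.9%, 36.7% and 26.0% for Eif3j1 and 46.7%, 48.3%, 45.6%, 53.6%, 43.9% and 36.6% for Eif3j2. Eif3j2 was above Eif3j1 in all 6 libraries.

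The eIF4A helicases unwind the mRNA leader. Of their genes, Eif4a2 had labelled shares of 50.9%, 32.8%, 37.0%, 28.1%, 16.3% and 12.1%, and its loss of 0.546 ± 0.096 per h gave a half-life of 76.2 min (adjusted p = 0.000227 in limma). Eif4a1 had shares of 15.2%, 18.7%, 13.7%, 21.9%, 17.6% and 15.2%, so that start and end were equal and the slope did not pass (adjusted p = 0.909). Eif4a1 had 0.30 of the share of Eif4a2 at 0 min and 1.25 times its share at 150 min. These are the helicase genes with the most reads, 40491 to 72930 per library for Eif4a1 and 19504 to 27084 for Eif4a2. Eif4a2 exons overlap the opposite-strand gene Rfc4.

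Eif4a3, whose product belongs to the exon junction complex, had shares of 52.4%, 53.8%, 52.9%, 56.9%, 43.0% and 35.8%. For the helicase partners, Eif4b shares were 38.6%, 41.1%, 38.4%, 42.9%, 31.1% and 24.1%, and those of the related Eif4h were 36.8%, 36.9%, 32.1%, 38.3%, 33.0% and 29.6%. None of these 3 genes passed, against a falling share in 52.3% of all genes, with rates of 0.143, 0.175 and 0.071 per h.

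**Figure D3:**
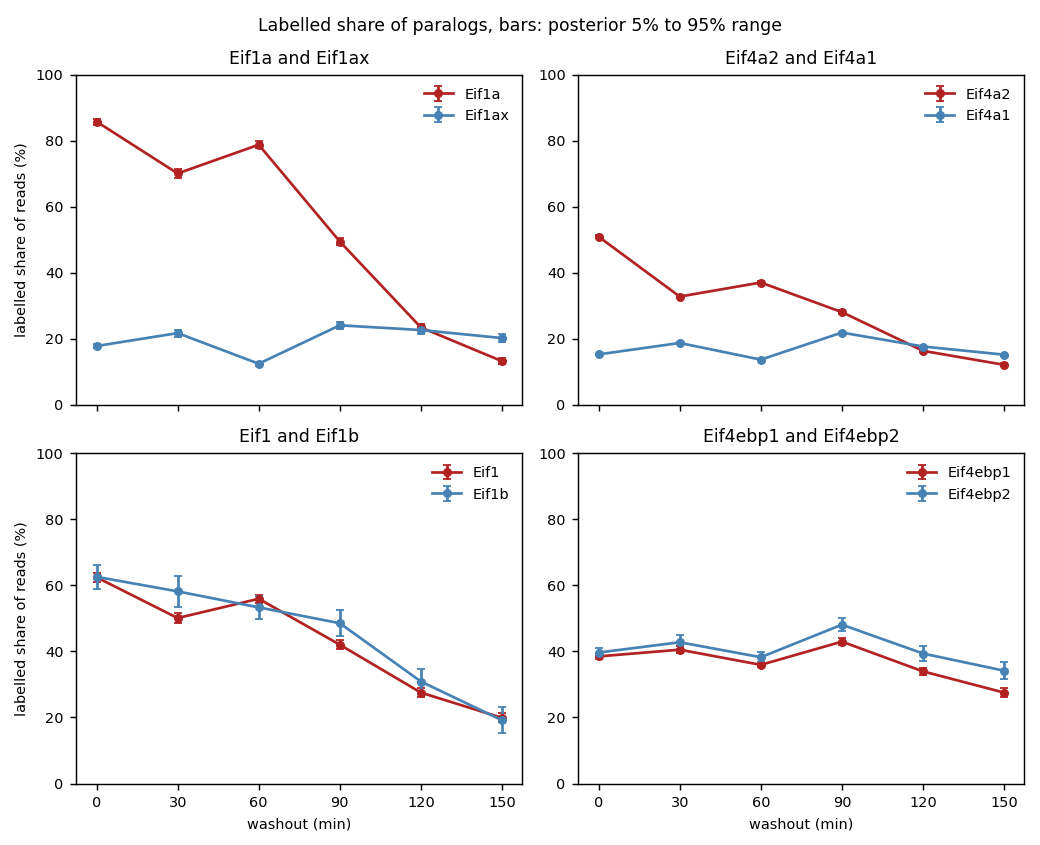
Labelled share (%) against washout time (min) for 4 paralog pairs, 1 library per point, with bars for the posterior 5% to 95% range. Eif1a and Eif4a2 start far above Eif1ax and Eif4a1 and end below them, while Eif1 and Eif1b run together and Eif4ebp1 slowly separates from Eif4ebp2.

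At the cap, the eIF4E relative Eif4e2, known as a translational repressor, fell. Its shares of 45.8%, 42.5%, 40.4%, 33.9%, 29.0% and 21.1% decreased at each time, with a half-life of 140 min (adjusted p = 0.00972 in limma). Eif4e itself, which encodes the main cap-binding protein, had 38.1%, 45.2%, 35.3%, 41.0%, 32.1% and 25.7% and did not pass (adjusted p = 0.153). Eif4enif1, which encodes a protein that binds eIF4E and carries it into the nucleus, had shares of 51.5%, 49.4%, 45.5%, 43.7%, 33.0% and 21.2% and a half-life of 128 min (adjusted p = 0.00825). Both Eif4e2 and Eif4enif1 were lost without the 150 min library and with posterior weights, with adjusted p values of up to 0.154 and 0.214.

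The small eIF4E-binding proteins encoded by the Eif4ebp genes are repressors of cap-dependent initiation. Eif4ebp1 shares were 38.5%, 40.5%, 35.9%, 43.0%, 34.0% and 27.5%. Eif4ebp2 shares were 39.7%, 42.8%, 38.2%, 48.1%, 39.4% and 34.2%, above Eif4ebp1 in every library. Neither slope passed, with rates of 0.116 and 0.044 per h. The third gene, Eif4ebp3, had too few reads for the main test. With a minimum of 20 reads its loss was 0.454 ± 0.102 per h (limma adjusted p = 0.00373), and that of Eif4e3, an eIF4E relative, was -0.418 ± 0.142 per h (adjusted p = 0.0287). Both rest on at most 53 reads per library.

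Of the scaffold genes of eIF4G, 0 of 3 passed by share, against a falling share in 52.3% of all genes. Eif4g1 shares were 27.1%, 32.2%, 23.6%, 34.2%, 30.1% and 26.6%. Eif4g2 shares were 31.1%, 30.3%, 23.8%, 32.2%, 25.7% and 23.9%, and those of the low-expressed Eif4g3 were 17.4%, 29.7%, 20.2%, 24.0%, 19.9% and 16.4%. The rates were -0.0048, 0.086 and 0.076 per h.

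No share slope of the late-acting and accessory factors passed, against a falling share in 52.3% of all genes. Eif5b, for the GTPase of subunit joining, had shares of 30.7%, 32.3%, 26.0%, 33.2%, 27.7% and 27.1%. Eif6, for the factor that holds the large subunit apart, had 49.0%, 56.0%, 45.5%, 46.5%, 41.4% and 39.5%. Eif5a, for the hypusine-carrying factor that also acts in elongation, had 17.1%, 21.4%, 12.7%, 21.1%, 19.9% and 18.5%, and its less abundant paralog Eif5a2 had 34.2%, 41.6%, 33.7%, 44.6%, 36.9% and 31.2%. The rates of these 4 genes ran from -0.039 per h (Eif5a) to 0.112 per h (Eif6).

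In every one of the 10 falling genes the 150 min share was the lowest of the 6, and in 9 the 0 min share was the highest. These genes were selected for a falling slope over the same 6 libraries, so this shape largely follows from the selection. The other 37 did not pass that slope test, so the contrast with them rests on the selection too. Their highest share was at 30 or 90 min in 33 of them, and the lowest at 60 or 150 min in all 37. The share at 60 min exceeded that at 30 min in 5 of the 10 falling genes and in 1 of the other 37, against 47.1% of all genes tested. The part of the library differences in these shapes was not tested. The falling count was 8 of 47 without both of these libraries (47.1% of all genes), with Eif3a and Eif2b2 lost, and 10 of 47 with their times exchanged (54.5% of all genes).

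The share at the start also gives a half-life of its own, if levels were constant over the 4 h of labelling. For the 10 falling genes this uptake half-life had a median of 210 min, against 103 min from the washout, and it was the longer of the pair in 10 of 10. These genes were taken for a steep washout slope, which favours a short washout half-life. In the other 37 the uptake median was 526 min, and of the 23 with a falling point estimate the uptake value was the longer in 7. For Eif1a the values were 85.4 min and 55.5 min. Both figures assume constant levels, and the uptake value rests on the 0 min library alone.

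The raw T>C rate does not depend on the model behind the share. It fell in 19 of 47 genes (40.4%; limma adjusted p under 0.05), against 66.8% of all genes, and rose in 0 of 47, against 0.00872% of all genes and with 0 of 47 at an unadjusted p under 0.05; divided by the rate over all genes of each library, 6 fell, against 30.4% of all genes, and 19 rose, against 19.5% of all genes. That division subtracts the same slope from every gene, so the changes of direction follow from its construction. The median raw slope was -0.33 per h over the 47 genes and -0.51 per h over all genes. The 19 included all 10 genes whose share fell. The other 9 were Eif2b1, Eif2b4, Eif3g, Eif4a3, Eif4b, Eif4e, Eif4ebp1, Eif4g3 and Eif6, and relative to the all-gene rate each of these 9 has the opposite sign, by that construction. Leaving out the 150 min library, 2 genes fell, against 22.8% of all genes. Without the 120 min library 8 fell, against 50.0% of all genes, and without the 0 min library 10, against 49.4%. Without the 60 min library 34 fell, against 80.8% of all genes. Without the 90 min library 17 fell, against 64.1%, and without the 30 min library 21, against 69.5%. With the 30 and 60 min times exchanged 41 of 47 fell, against 87.8% of all genes.

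**Figure D4:**
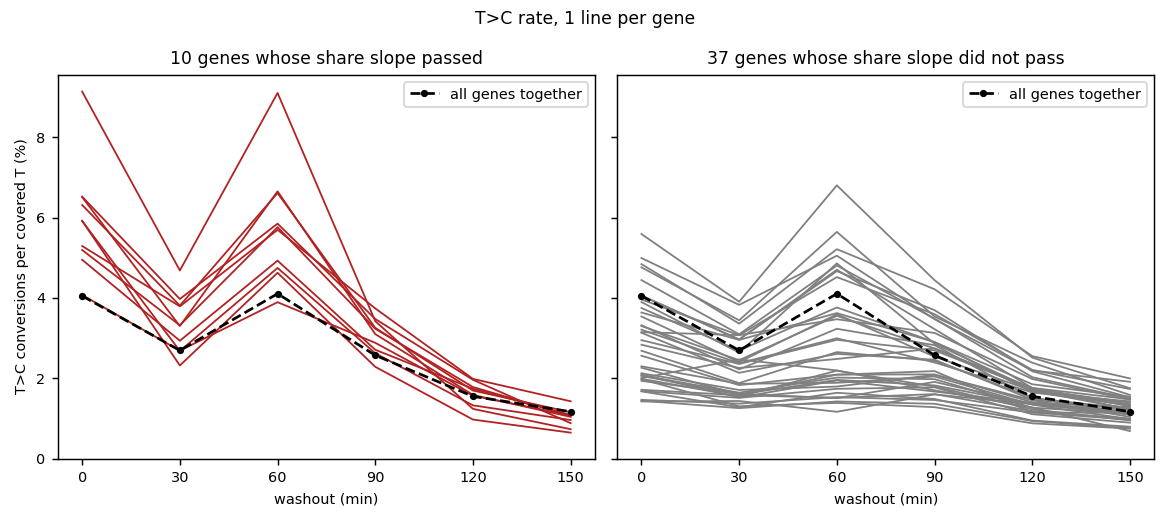
T>C conversions per covered T (%) against washout time (min), 1 line per gene, for the 10 genes whose share slope passed (left) and the other 37 (right), with the rate over all genes dashed. Most lines rise again at 60 min in both panels, and those on the right are mostly at or below the dashed line at 0 min.

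In Eif1a the T>C rates were 9.14%, 4.68%, 9.11%, 3.42%, 1.24% and 0.731%, and in Eif1ax 1.94%, 1.61%, 1.50%, 1.91%, 1.36% and 1.09%. In Eif4a2 they were 5.92%, 2.32%, 4.63%, 2.29%, 0.971% and 0.645%, and in Eif4a1 1.68%, 1.51%, 1.74%, 1.77%, 1.10% and 0.892%. In both pairs the faster gene was higher at 0 min and lower at 150 min. The rate at 60 min exceeded that at 30 min in 43 of 47 genes, and at 150 min it was below that at 0 min in 47 of 47. For all genes together the rate also went from 2.69% at 30 min to 4.11% at 60 min. It was 4.05% at 0 min and 1.17% at 150 min. The share of all genes with these orders was not computed. Among the 47 genes the widest 95% Wilson interval of a T>C rate was 0.94 percentage points, for Eif1b, and covers counting error only.

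Total reads were also tested for a slope on washout time. The slope passed in 0 of 49 genes kept (edgeR's quasi-likelihood test with TMM scaling), against 0% of the 15743 genes tested, and DESeq2 called 0 members, against 1.36% of all genes lower and 1.24% higher. At an unadjusted p under 0.05, edgeR gave 2 lower and 2 higher slopes, and the smallest adjusted p was 0.158. The share of all genes at that unadjusted threshold was not computed, so these slopes are not a result about the members. The lower pair was Eif4ebp1 at -0.18 ± 0.079 and Eif4ebp2 at -0.18 ± 0.066 log2 per h. The higher pair was Eif1a at 0.21 ± 0.085 and Eif5 at 0.18 ± 0.080 log2 per h. Without the 60 min library, 2 genes fell and 1 rose, against 4.13% and 5.06% of all genes. With the 30 and 60 min times exchanged 3 fell and 2 rose, against 8.22% and 10.1% of all genes.

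**Figure D5:**
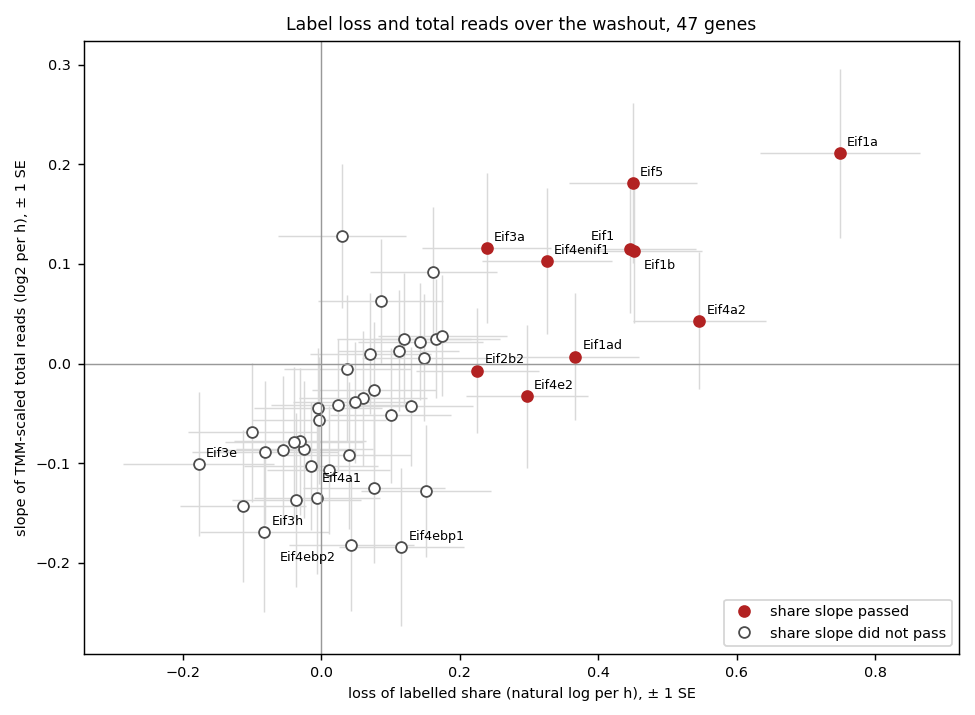
Slope of TMM-scaled total reads (log2 per h) against the rate of loss of the labelled share (natural log per h) for the 47 genes, with bars of ± 1 SE on both axes. Filled points are the 10 genes whose share slope passed. Of these, 8 have a positive point estimate for total reads, against 48.9% of all genes tested for reads, although no gene's read slope passed.

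The 2 kinds of slope ran together across genes, with a Spearman's rho of 0.72 over the 47 genes, a description from the same 6 libraries. The point estimate for total reads was positive in 8 of the 10 genes whose share fell, and negative in 27 of the other 37. Of all genes tested for total reads, 48.9% had a positive and 51.1% a negative point estimate. Using labelled abundance (share times scaled reads) in place of the share, 10 genes fell, as with the share, against 47.5% of all genes. Of these, Eif2d and Eif4ebp1 were called with no other setting, and Eif3a and Eif2b2 were no longer called.

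Paralogs were compared directly through the ratio of their shares in each library, which cancels what a library shares between genes. With 6 libraries the smallest p an exact permutation test over the 720 orderings of the times can give is 0.00278, and p was adjusted over 11 pairs. Only Eif4ebp1 and Eif4ebp2 passed (two-sided exact p = 0.00278, the smallest possible, adjusted 0.0306), with Eif4ebp1 losing share faster by 0.072 ± 0.0092 per h. Their ratio went from 0.97 at 0 min to 0.81 at 150 min, so the size of this difference was small. With T>C rates in place of shares, or without any 1 library other than the 60 min one, the pair did not pass. With 1 library left out the smallest possible p is larger, so not passing there cannot show that the difference is unstable. The slope of Eif4ebp1 minus that of Eif4ebp2 then ranged from -0.082 to -0.059 per h.

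Eif1a/Eif1ax and Eif4a1/Eif4a2, the pairs that differed most in size, did not pass the adjusted test, and neither did Eif4g1/Eif4g2. The ratios of these pairs were not ordered strictly by time. Eif1a lost share faster than Eif1ax by 0.83 ± 0.23 per h (two-sided exact permutation p = 0.0306, adjusted 0.107). Eif4a2 lost share faster than Eif4a1 by 0.56 ± 0.13 per h (exact p = 0.0194, adjusted 0.107). The difference between Eif4g1 and Eif4g2 was 0.091 ± 0.031 per h (exact p = 0.0389, adjusted 0.107). With the 30 and 60 min times exchanged, 6 pairs passed, among them these 3, and without the 60 min library 4 pairs passed.

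Eif1 and Eif1b differed by 0.0062 ± 0.049 per h (exact permutation p = 0.903), although their coding sequences are 81.3% identical, less than the 85.5% of Eif1a and Eif1ax. The interval of 1 SE allows a difference of either sign, so this does not show that they act alike. The pairs Eif4a1/Eif4a3, Eif4e/Eif4e2, Eif4g1/Eif4g3, Eif5a/Eif5a2, Eif4b/Eif4h and Eif3j1/Eif3j2 had adjusted p of 0.173, 0.171, 0.449, 0.449, 0.206 and 0.449 (exact permutation tests).

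Gene structure gave few common features. The 47 genes lie on 16 chromosomes, with Eif1ax and Eif2s3x on the X. Genes for snoRNAs lay within the span, on the same strand, of 6 of the 47 genes. These hosts were Eif4a2 with 5, Eif4a1 with 3, Eif3a with 2, and Eif5, Eif4g1 and Eif4g2 with 1 each. Whether the snoRNA genes lie in introns was not checked. The hosts were 3 of the 10 falling genes and 3 of the other 37, and the share of hosts among all genes was not computed. Eif4a1 spans chr11:69666936-69672423 on the minus strand and Eif4a2 chr16:23107444-23114136 on the plus strand (GRCm38), with 11 exons each in the representative transcript. Eif1 is at chr11:100319885-100322096 and Eif1b at chr9:120492232-120495330, both on the plus strand with 4 exons. The rate of loss had a Spearman's rho of -0.17 with gene span, -0.16 with exon number and 0.25 with the number of ATTTA motifs in the 3′ UTR, all over 47 genes and as descriptions.

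Promoters were matched in RefSeq (GRCm38.p6) for 39 of the 51 genes, with 51 promoters of 250 bases before to 50 bases after the start. On both strands, CCGGAAG was in 35.3% of them and in 8.86% of all 32851 promoters of that length, and CACGTG in 23.5% and 7.15%. CCAAT was in 25.5% of member promoters and 37.4% of all, and TATAAA in 5.88% and 13.6%. The promoter set of all genes includes genes not expressed in these cells. Eif4a1 has CACGTG and CCAAT, and the Eif4a2 promoter has none of these 4 motifs.

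Other genes of the pathway, in 4 lists, were read from the same fit. Of 37 genes tested with limma, 13 fell, against 52.3% of all genes, and 0 rose (also 0 at an unadjusted p under 0.05), against 1.19% of all genes, with a median rate of 0.158 per h. Of the elongation and termination genes 2 of 11 fell, with a median rate of 0.032 per h. The eIF2 kinase and phosphatase subunit genes had 3 of 6 falling, the list of poly(A)-binding and cap-side regulators 5 of 13, and the list of scanning helicases, reinitiation and mitochondrial initiation genes 3 of 7.

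The shortest half-lives among them were 45.3 min for Ppp1r15b, which directs the phosphatase that resets eIF2, 48.0 min for the termination factor gene Gspt2, and 53.2 min for the mitochondrial initiation factor gene Mtif3. The longest among those that fell were 187 min for Rptor, a subunit of the mTOR complex that acts on the 4E-BPs, 148 min for Mknk2 and 133 min for Mknk1, the kinases of eIF4E. In limma, the adjusted p of these 6 genes ran from 5.17e-05 (Gspt2) to 0.0426 (Rptor).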

How the data were processed

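Nuclear RNA of 6 washout times was sequenced with 1 library per time, and the per-gene table the authors deposited was used. The submitters' processing notes name the aligner STAR 2.5.2b and the build mm10; which program made the per-gene table is not given in any source used. The deposited read counts per gene are not normalized, conversions and covered T positions are deposited as counts, and the labelled share is deposited as a fraction (a posterior mean with its mode and 5% and 95% bounds). The file's column names give a number, taken here as the title's washout time without its last digit and unit, and every slope rests on that reading.

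The members and lists were chosen with earlier results of these data known. Slopes on time (h) were fitted to the natural log of the share, and of (conversions + 0.5)/(covered T + 1), with limma 3.58.1 in R 4.3.3, for genes averaging 100 reads or more per library whose share was above 0 in all 6. Total reads were tested with edgeR 4.0.16 (glmQLFTest, TMM, filterByExpr), with DESeq2 1.42.0 as an alternative. Adjusted p-values are Benjamini-Hochberg over all genes tested. Pair ratios had exact permutation tests. All share and rate values are given in the order 0, 30, 60, 90, 120 and 150 min. Values in all libraries are given for genes with a called slope, for the gene with the most reads in each factor, for both genes of each pair, and for Eif3e, which was chosen after its values were seen. Every gene was matched to GENCODE M21 by its gene ID. The limma fit of the share and the edgeR fit were tested on simulated data with noise drawn independently for each gene and library. That simulation does not cover differences that a library shares between genes. Alternatives were other read minimums, the posterior mode, the logit, posterior weights, labelled abundance, other scaling and filters, each library left out, and exchanged 30 and 60 min times; leaving out both of these libraries was chosen after seeing the data. Eif2s3y was not analysed here.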

Additional observations from a re-analysis of the deposited data

How the results depend on the processing

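No paired analysis was possible because no washout time has a second library. The direction of the labelled share slope did not reverse for any called gene under the alternatives run, and Eif1, Eif1a, Eif4a2 and Eif5 were called in 14 of 14. The count of genes whose share fell, 10 (52.3% of all genes), became 5 with posterior weights (25.7% of all genes). It ranged from 4 to 10 with 1 library left out, against 31.1% to 55.4% of all genes. It was 9 with a minimum of 20 reads (49.2% of all genes) and 8 without the 30 and 60 min libraries (47.1% of all genes). The count of genes whose share rose, 0, became 1 with a minimum of 20 reads (Eif4e3), against 1.12% of all genes. With the 30 and 60 min times exchanged it was 1 (Eif3e), against 4.56% of all genes. For the T>C rate, the 19 falling genes became 6 relative to the rate over all genes, against 30.4% of all genes. The 0 rising genes became 19, against 19.5% of all genes. The falling count ranged from 2 to 34 with 1 library left out, against 22.8% to 80.8% of all genes. With the times exchanged it was 41, against 87.8% of all genes. For total reads, the count of 0 falling genes ranged from 0 to 2 with 1 library left out, against 0% to 4.13% of all genes. The count of 0 rising genes ranged from 0 to 1, against 0% to 5.06%. With the times exchanged these counts were 3 and 2, against 8.22% and 10.1% of all genes. Of 11 pairs, the 1 passing became 0 with T>C rates, 0 to 4 with 1 library left out and 6 with the times exchanged. With 1 library left out the smallest possible p is larger, so a count of 0 there cannot show that a difference is unstable. The Eif4ebp1/Eif4ebp2 difference was -0.096 per h with T>C rates, where it did not pass, and -0.082 to -0.059 with 1 library left out. With the times exchanged, pairs that newly passed had differences of -0.91 (Eif1a/Eif1ax), 0.61 (Eif4a1/Eif4a2), 0.19 (Eif4a1/Eif4a3), 0.16 (Eif4e/Eif4e2) and 0.099 (Eif4g1/Eif4g2) per h. With 1 library left out the first 3 of these ranged from -1.001 to -0.71, from 0.53 to 0.64 and from 0.14 to 0.19.

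Dividing each T>C rate by the all-gene rate subtracts 1 slope from all genes by construction. Genes that changed sign without passing either before or after the division are not counted here. The direction reversed in 28 genes that passed before it, after it or both (limma adjusted p under 0.05). Their rates of loss became -0.25 (Eif2a), -0.086 (Eif6), -0.29 (Eif3m), -0.077 (Eif4e), -0.045 (Eif4g3), -0.31 (Eif3i), -0.18 (Eif3b), -0.074 (Eif2b1), -0.044 (Eif2b4), -0.21 (Eif3c), -0.24 (Eif3k), -0.21 (Eif3f), -0.075 (Eif4ebp1), -0.095 (Eif3g), -0.17 (Eif4ebp2), -0.28 (Eif5a), -0.046 (Eif4a3), -0.23 (Eif2s1), -0.24 (Eif4a1), -0.18 (Eif3d), -0.26 (Eif3l), -0.42 (Eif3e), -0.041 (Eif4b), -0.33 (Eif3h), -0.20 (Eif4g1), -0.16 (Eif3j2), -0.30 (Eif1ax) and -0.23 (Eif2s3x) per h. The cause of the other changes was not tested. Depth limits Eif4e1b, Eif4e3, Eif4ebp3 and Eif2c5, with at most 53 reads in any library.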
